A study of Mus musculus with 6 samples.

Results

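The Schlafen family was examined in mouse neutrophils that lacked cGAS and were cultured with or without LPS, the endotoxin of Gram-negative bacteria. Its members were taken by symbol, as the rows *Slfn1*, *Slfn2*, *Slfn3*, *Slfn4*, *Slfn5*, *Slfn8* and *Slfn9*, and all 7 were found among the 38739 genes of the table and had a value above 0. The cells came from the peritoneum of cGAS knockout mice (strain C57B/L6 as the labels spell it, C57BL/6J background in the methods), after thioglycolate injection per the methods, from male animals of 8 weeks. Of 6 samples, 3 were untreated (media control) and 3 received LPS (*E. coli* 026:B6) for 2 h, at 500 ng/mL per the labels, whereas the methods of the study give a lower dose. Both groups carry the cGAS deletion and no wild-type sample was sequenced, so LPS against untreated was the only comparison. Nothing states that the samples came from separate animals or cultures, so p-values measure only the spread between these samples.

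Schlafen genes are a family of vertebrate genes whose proteins share the Schlafen core domain at their N-terminus, a fold that binds and in some members cleaves transfer RNA. In mice they form a short group (*Slfn1* and *Slfn2*), an intermediate group (*Slfn3* and *Slfn4*) and a long group that carries a helicase-like C-terminal domain (*Slfn5*, *Slfn8*, *Slfn9*, *Slfn10* and *Slfn14*). They were first described as growth regulators of T cells, and several are induced by type I interferon and by LPS in myeloid cells. cGAS is a sensor of cytosolic DNA that drives interferon production through STING.

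At 2 h no Schlafen gene passed the limits of a call, which in limma on log2(value + 1) were a p below 0.01 before adjustment together with a log2 fold change beyond 2. Of the 7 members, 0 were called higher and 0 lower, beside 1.69% and 1.31% of the 23049 genes tested, and 0 passed a Benjamini-Hochberg adjusted p of 0.05 in either direction, beside 0.894% higher and 0.946% lower. *Slfn2* and *Slfn1*, the short members, were the only members whose groups did not overlap in the values as deposited, and they lay in opposite directions. All LPS samples were above all untreated samples in *Slfn2* and below them in *Slfn1*, an arrangement found in 13.1% (above) and 9.75% (below) of all genes tested. By sign alone 4 members had a positive and 3 a negative log2 fold change, with a median of 0.51 beside 0.01 over all genes, of which 52.9% were positive. Over the 9403 genes with a mean of at least 1, which hold all members, the median was 0.13. The 95% confidence interval lay within a log2 fold change of 2 in both directions for 6 of 7 members, and held 0 for 6 of 7, *Slfn1* being the exception.

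The values are TPM that the authors scaled between samples and, as inferred from their digits, averaged over the transcripts of a gene (here scaled TPM). They hold no read counts, so the depth behind each value is unknown. In untreated cells the members ranged from 0.144 for *Slfn3* in 1 sample to 1049 for *Slfn2*. *Slfn2* ranked 18 to 25 among the 14313 protein-coding genes of the table in every sample, *Slfn4* 29 to 106 and *Slfn1* 105 to 367. *Slfn5* ranked 954 to 2569, *Slfn8* 1321 to 4906, *Slfn9* 2346 to 5741 and *Slfn3* 2971 to 8021. These ranks cover only genes with a row, and genes such as *Ifnar1*, *Ifit1* and *Mx1* had no row under their symbol. When each value was multiplied by the gene's number of transcripts, *Slfn2* ranked 63 to 125, *Slfn4* 33 to 127 and *Slfn1* 469 to 1356, so the order of *Slfn2* and *Slfn4* depends on that step.

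**Figure D1:**
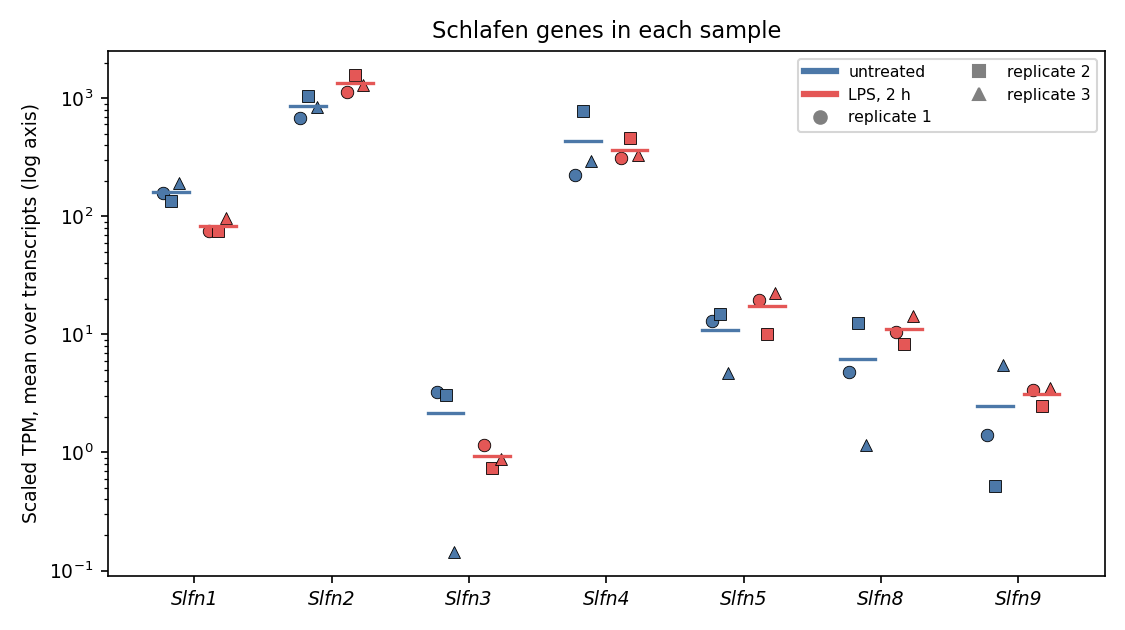
Scaled TPM (log10 axis) of the 7 Schlafen genes in each of the 3 untreated and 3 LPS samples, one point per sample, with bars at the group means. Only *Slfn2* and *Slfn1* have groups that do not overlap, and the untreated points of *Slfn3*, *Slfn8* and *Slfn9* spread furthest.

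The genes lie in one cluster on chromosome 11 (GRCm39, GENCODE M39). In order they are *Slfn5* (82842100 to 82855666, plus strand), *Slfn9* (82868552 to 82882656, minus), *Slfn8* (82892984 to 82911669, minus), *Slfn10* (82918956 to 82958140, minus), *Slfn2* (82955609 to 82961504, plus), *Slfn1* (83007615 to 83013496, plus), *Slfn4* (83066012 to 83081042, plus), *Slfn3* (83082123 to 83109101, plus) and *Slfn14* (83165936 to 83177552, minus). The table lists *Slfn10* under its older name *Slfn10-ps*. The coding sequence of 1011 bases for *Slfn1* and 1134 for *Slfn2* compares with 1806 for *Slfn4*, 1920 for *Slfn3* and 2652 to 2730 for *Slfn5*, *Slfn8* and *Slfn9*. Near-identical copies stand side by side: *Slfn3* and *Slfn4* share 91.0% of aligned coding bases, *Slfn8* and *Slfn9* 92.7%, *Slfn8* and *Slfn10* 92.8% and *Slfn9* and *Slfn10* 93.1%. *Slfn1* and *Slfn2* share 68.5%. Of the 31-base words of the transcripts, 26.8% of those in *Slfn8*, 22.3% in *Slfn9*, 19.1% in *Slfn3* and 18.3% in *Slfn4* also occur in other genes, against 9.63% in *Slfn2*, 4.63% in *Slfn5* and 1.78% in *Slfn1*. These shares count words found in any other gene. Within the sets, *Slfn3* shares 7.89% of its words with *Slfn4*, and *Slfn4* 11.7% with *Slfn3*. *Slfn8* shares 19.0% with *Slfn9*, and *Slfn9* 12.0% with *Slfn8*. The split of reads from these shared stretches is uncertain, and its part in the values was not tested.

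The 250 bases before the transcription start (RefSeq, GRCm38.p6) are shown for *Slfn1* and *Slfn2*, whose groups did not overlap, and for *Slfn5*, *Slfn8* and *Slfn9*, which hold an interferon-stimulated response element (ISRE). Capitals mark a match to the ISRE (GAAA, any 2 bases, GAAA) or to the NF-kB motif on either strand. The gamma-activated site (TTCNNNGAA) was also searched. Of the 2 starts of *Slfn8*, the window of the outer one is shown.
*Slfn1*, chr11:83116570-83116819, plus strand: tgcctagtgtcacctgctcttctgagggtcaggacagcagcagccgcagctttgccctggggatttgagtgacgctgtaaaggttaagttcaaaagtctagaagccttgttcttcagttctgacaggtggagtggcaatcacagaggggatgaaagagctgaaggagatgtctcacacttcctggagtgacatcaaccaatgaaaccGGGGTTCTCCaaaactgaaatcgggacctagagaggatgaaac
*Slfn2*, chr11:83064862-83065111, plus strand: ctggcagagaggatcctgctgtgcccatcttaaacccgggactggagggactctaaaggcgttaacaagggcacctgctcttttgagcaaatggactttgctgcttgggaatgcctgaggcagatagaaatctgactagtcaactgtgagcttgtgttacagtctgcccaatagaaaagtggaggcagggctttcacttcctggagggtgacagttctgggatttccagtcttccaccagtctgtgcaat
*Slfn5*, chr11:82951852-82952101, plus strand: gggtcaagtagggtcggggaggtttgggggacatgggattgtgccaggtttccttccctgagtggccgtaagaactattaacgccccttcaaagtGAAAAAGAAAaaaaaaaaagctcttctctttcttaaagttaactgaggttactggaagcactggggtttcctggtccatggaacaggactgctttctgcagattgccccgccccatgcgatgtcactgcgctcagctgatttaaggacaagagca
*Slfn8*, chr11:83020811-83021060, minus strand: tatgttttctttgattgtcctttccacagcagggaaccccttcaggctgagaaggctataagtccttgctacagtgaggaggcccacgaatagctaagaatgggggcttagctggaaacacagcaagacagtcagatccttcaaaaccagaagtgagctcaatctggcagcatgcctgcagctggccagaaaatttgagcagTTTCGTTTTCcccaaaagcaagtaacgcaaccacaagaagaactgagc
*Slfn9*, chr11:82991831-82992080, minus strand: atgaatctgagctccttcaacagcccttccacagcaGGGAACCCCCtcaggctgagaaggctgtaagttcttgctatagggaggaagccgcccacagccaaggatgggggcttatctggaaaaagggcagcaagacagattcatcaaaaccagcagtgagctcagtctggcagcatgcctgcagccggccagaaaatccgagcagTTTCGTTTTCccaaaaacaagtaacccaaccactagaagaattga

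An ISRE was found in *Slfn5* (positions -155 to -146 from the start), *Slfn9* (-45 to -36) and *Slfn8* (-48 to -39), all of the long group, and in 2.97% of all 32817 promoters. Of the same group, *Slfn14* held no ISRE and the promoter of *Slfn10* was not searched. *Slfn8* and *Slfn9* hold the same word, TTTCGTTTTC. An NF-kB match was found in *Slfn9* and in *Slfn1*, and in 7.25% of all promoters. No gamma-activated site was found in any member, against 7.01% of all promoters, and *Slfn2*, *Slfn3* and *Slfn4* held none of the 3 motifs in this window. A match is a description of letters, not of binding.

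The spread between replicates was larger in untreated than in LPS samples: over 9403 genes with a mean of at least 1 the median SD on the log2 scale was 0.787 in untreated and 0.316 in LPS samples, and the untreated SD was the larger in 79.5% of genes. Replicate 2 of each group stood apart in its sum of neutrophil and of B cell markers. The summed level of 16 neutrophil markers was 30479 in untreated replicate 2 against 10604 and 10671, and 58176 in LPS replicate 2 against 18526 and 21031. Most of it came from *S100a8* and *S100a9*, at 8405 and 16151 in untreated replicate 2 and 19851 and 28393 in LPS replicate 2. Not all markers followed: *Camp* and *G0s2* were lowest in untreated replicate 2, and *Ltf* and *Il1r2* in LPS replicate 2. The sum of 7 B cell markers was lowest in replicate 2, at 143.8 against 410 and 556 in untreated samples and 68.0 against 227 and 241 in LPS samples. Each B cell marker was lowest in LPS replicate 2. In untreated replicate 2 this did not hold for *Cd79b* and *Pax5*, which lay between the other untreated samples. Macrophage markers (13 genes) summed to 189 to 295 in untreated and 329 to 445 in LPS samples, mostly from *Cd68* (157 to 179 and 230 to 381). All LPS samples were above all untreated ones in *Cd68* and *C1qb* and below them in *Ccr2* and *Mrc1*. T cell markers (11) summed to 17.2 to 25.3 in untreated and 11.3 to 25.9 in LPS samples. The same sums were 3.10 to 8.52 and 2.02 to 5.31 for eosinophil markers (5, with *Epx* at 0 throughout), and 25.7 to 85.1 and 83.1 to 131.7 for mast cell markers (4). At the limits 1 of 16 neutrophil markers was called lower (*Cxcr2*) and 1 of 13 macrophage markers higher (*C1qb*), beside 1.31% and 1.69% of all genes. The other lists gave 0 calls. In bulk samples fewer cells of a type and less RNA per cell cannot be told apart. *Slfn2* and *Slfn4* were highest and *Slfn1* lowest in replicate 2 of both groups, and the part of the makeup of the samples in these results was not tested.

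The short members lay on opposite sides of 0. *Slfn2*, which holds T cells and monocytes in quiescence and protects their transfer RNA from cleavage, had 684, 1049 and 836 scaled TPM in untreated and 1133, 1586 and 1307 in LPS samples. The means were 856 ± 183 and 1342 ± 228 (SD, n = 3 each). Every LPS sample was above every untreated one, the lowest LPS value (1133) standing close to the highest untreated value (1049). The log2 fold change was 0.66 (SE 0.30, 95% CI -0.08 to 1.39, limma adjusted p = 0.334).

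*Slfn1*, which arrests T cell growth when overexpressed, had 157.7, 136.0 and 190.0 scaled TPM in untreated and 75.3, 74.9 and 97.4 in LPS samples. The means were 161 ± 27.2 and 82.5 ± 12.9 (SD, n = 3 each), and the groups were separated by a gap larger than either SD. Before adjustment, 0 members on the higher side and 1 on the lower, *Slfn1*, had a limma p below 0.05, beside 10.3% and 6.66% of all genes. Its log2 fold change was -0.96 (SE 0.28, 95% CI -1.65 to -0.26, limma adjusted p = 0.156).

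The ratio of *Slfn2* to *Slfn1* within a sample is not changed by a scaling that multiplies all its values by 1 factor, unlike quantile normalization. Both genes have 1 transcript in older annotation. The ratio was 4.34, 7.71 and 4.40 in untreated and 15.1, 21.2 and 13.4 in LPS samples, so the groups did not overlap. The pair was chosen after its values were seen, and the ratio was not tested.

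The intermediate members did not pass the test. *Slfn4*, a gene of myeloid cells that is known to be induced by LPS and interferon in macrophages, had 222, 779 and 292 scaled TPM in untreated and 310, 459 and 328 in LPS samples. Untreated replicate 2 stood above all other samples and the groups overlapped. The log2 fold change was -0.04 (SE 0.52, 95% CI -1.32 to 1.24, limma adjusted p = 0.975), and it was 0.50 without untreated replicate 2. The sign also turned without LPS replicate 1 (0.07) or LPS replicate 3 (0.03), so no direction can be given.

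*Slfn3*, studied in T cells and in the differentiation of the gut epithelium, had the lowest mean of the members in both groups, although *Slfn9* was lower in untreated replicates 1 and 2. It had 3.27, 3.04 and 0.144 scaled TPM in untreated and 1.17, 0.734 and 0.885 in LPS samples. Untreated replicate 3 was the lowest of all samples and the other untreated ones the highest. The log2 fold change was -0.49 (SE 0.58, 95% CI -1.90 to 0.92, limma adjusted p = 0.650). It was -0.16 without untreated replicate 1, -0.20 without untreated replicate 2 and -1.11 without untreated replicate 3, with no adjusted p under 0.133. Because *Slfn3* and *Slfn4* are near-identical, their values were also summed on the transcript-multiplied scale, an alternative chosen after seeing the data, where the log2 fold change was -0.04 (SE 0.53, limma adjusted p = 0.971).

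The long members had positive log2 fold changes and overlapping groups, and none passed the test. *Slfn5*, a nuclear protein, had 13.1, 14.9 and 4.73 scaled TPM in untreated and 19.7, 10.2 and 22.4 in LPS samples, with a log2 fold change of 0.69 (SE 0.53, 95% CI -0.59 to 1.97, limma adjusted p = 0.551). LPS replicates 1 and 3 were above all untreated samples and LPS replicate 2 lay among them, and the log2 fold change was 0.23 without untreated replicate 3.

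*Slfn8* had 4.83, 12.6 and 1.16 scaled TPM in untreated and 10.6, 8.28 and 14.3 in LPS samples. Untreated replicate 2 lay within the LPS range and the other untreated samples below it. The log2 fold change of 1.09 was the largest among the members (SE 0.69, 95% CI -0.60 to 2.78, limma adjusted p = 0.491). It was 1.73 without untreated replicate 2 and 0.41 without untreated replicate 3. *Slfn9* had 1.41, 0.523 and 5.50 scaled TPM in untreated and 3.40, 2.46 and 3.53 in LPS samples. Its LPS values lay inside the untreated range, and the log2 fold change was 0.51 (SE 0.58, 95% CI -0.90 to 1.92, limma adjusted p = 0.640). Without untreated replicate 3 the value was 1.10, and without untreated replicate 2 it was 0.05.

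*Slfn8* and *Slfn9* ran against each other in the untreated samples. Among these, *Slfn8* was highest and *Slfn9* lowest in replicate 2, and the reverse held in replicate 3. Their ratio was 3.43, 23.99 and 0.211 in untreated samples and 3.11, 3.36 and 4.06 in LPS samples. It thus spread widely in untreated samples, and narrowly in LPS samples around the value of untreated replicate 1. Whether the split of shared reads has a part in this was not tested.

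*Slfn10-ps*, which GENCODE M39 annotates as the protein-coding gene *Slfn10*, had 5.09, 0.409 and 2.83 scaled TPM in untreated and 3.91, 7.88 and 5.66 in LPS samples. The groups overlapped through untreated replicate 1, and the log2 fold change was 1.05 (SE 0.60, limma adjusted p = 0.439). It was 0.46 without untreated replicate 2 and 1.51 without untreated replicate 1. The 3 near-identical genes *Slfn8*, *Slfn9* and *Slfn10-ps* were also summed on the transcript-multiplied scale, a choice made after seeing the data. The sums were 43.4, 77.7 and 29.1 in untreated and 81.3, 72.8 and 107.9 in LPS samples, and they overlapped only through untreated replicate 2. The log2 fold change of the sum was 0.88 (SE 0.44, 95% CI -0.19 to 1.96, limma adjusted p = 0.364), with a smaller SE than for *Slfn8*, *Slfn9* or *Slfn10-ps* alone.

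*Slfn14*, known as a ribosome-associated protein of platelets and red cell precursors, and the Schlafen-like gene *Slfnl1* were listed at 0 in all 6 samples. *Slfn5os* is a long non-coding RNA on the minus strand (82824893 to 82851536) that overlaps *Slfn5*. It had 35.8 in untreated replicate 1, 0 in the other untreated samples, and 0, 0.605 and 1.77 in LPS samples. Its log2 fold change of -1.02 (SE 1.47, limma adjusted p = 0.717) rests on the first of these, as it was 0.72 without that sample. The libraries were strand-specific, but the strand setting of the quantification is not given in the sources used here. Of the 31-base words of *Slfn5*, 23.0% occur in another gene on the opposite strand, as do 25.4% of those of *Slfn8*. *Slfn2* is itself overlapped on the minus strand by *Slfn10* and by *Gm20234*, which had 10.6, 3.14 and 20.9 scaled TPM in untreated and 13.7, 20.6 and 14.4 in LPS samples, far below *Slfn2*.

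**Figure D2:**
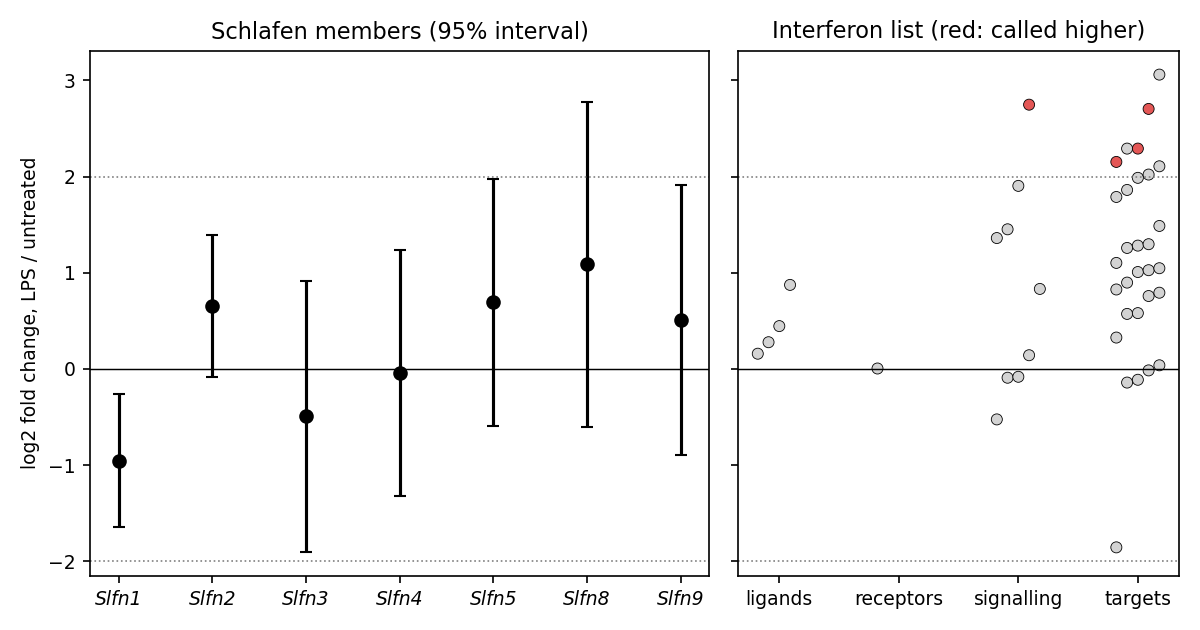
Log2 fold change (LPS / untreated) of the 7 Schlafen members with 95% confidence intervals on the left, and of each interferon gene tested on the right, one point per gene. The interval of *Slfn1* alone lies wholly on one side of 0, and the 4 red interferon genes passed the limits.

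The makeup of the family differed between the groups in the share of *Slfn2*. It took 63.0%, 52.6% and 62.9% of the summed value of the members in untreated and 73.0%, 74.1% and 73.7% in LPS samples. On the transcript-multiplied scale the shares were 42.7%, 28.6% and 43.0% against 49.4%, 50.5% and 50.7%. On both scales the 3 LPS samples lay close together and above all untreated samples. *Slfn4* took 20.4%, 39.1% and 22.0% in untreated and 20.0%, 21.4% and 18.5% in LPS samples, which overlap. *Slfn1* took 14.5%, 6.82% and 14.3% in untreated and 4.85%, 3.50% and 5.49% in LPS samples, without overlap, whereas on the other scale 3.71% in untreated replicate 2 lay just under 3.78% in LPS replicate 3. The summed value of all members was 1087, 1995 and 1330 in untreated and 1553, 2141 and 1773 in LPS samples, which overlap. These shares are a description without a test.

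**Figure D3:**
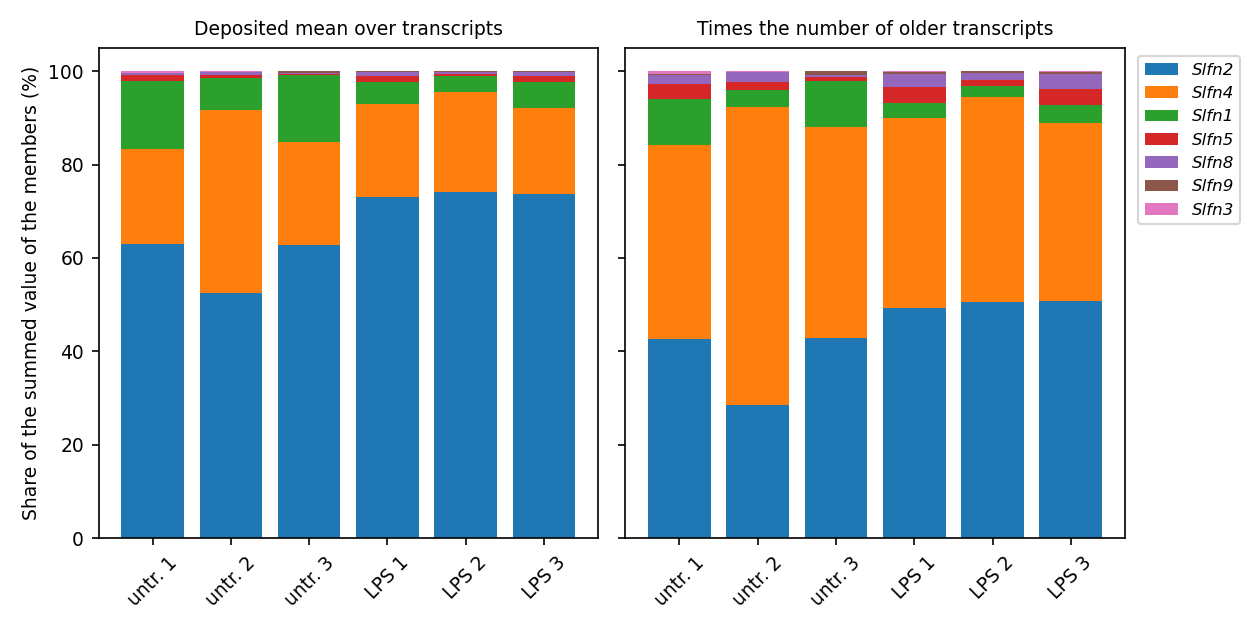
Share (%) of each member in the summed value of the 7 Schlafen genes, one stacked bar per sample, as deposited on the left and multiplied by the number of transcripts on the right. The *Slfn2* share is 73.0% to 74.1% in LPS and 52.6% to 63.0% in untreated samples as deposited.

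Interferon is a known inducer of Schlafen genes, and its pathway was described beside them. Of 66 listed genes 48 were in the table. Those without a row under their symbol include *Ifnar1*, *Ifnar2*, *Jak2*, *Irf9*, *Ifit1* and *Mx1*, so the counts cover only part of the pathway. The 44 tested had log2 fold changes that were positive in 37 and negative in 7. Their median was 0.95 beside 0.51 for the Schlafen members. The 37 hold 4 ligands at 0 in every untreated sample, which were tested only for a value in LPS samples. Their sign was therefore fixed in advance. Positive values were found in 26 of 30 targets and 6 of 9 signalling genes. The limits called 4 of the 44 higher and 0 lower, beside 1.69% and 1.31% of all genes. The adjusted p of 0.05 was passed by 1, which was higher, beside 0.894% of all genes on that side. The 4 became 2 without untreated replicate 3, LPS replicate 1 or LPS replicate 3, and 1 with samples scaled to their protein-coding total. LPS samples lay above all untreated samples in 17 of the 44 and below them in 1, beside 13.1% and 9.75% of all genes.

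By role, 0 of 4 interferon ligands tested and 0 of 1 receptor were called, 1 of 9 signalling genes was called higher and 3 of 30 targets were called higher, each beside the same 1.69% of all genes. *Ifnb1*, which encodes interferon beta, was listed at 0 in every untreated sample, whereas the LPS samples held 2.15, 0 and 0.955. *Tbk1*, the kinase that activates IRF3, rose from 8.26, 4.37 and 6.78 to 46.6, 50.9 and 46.5, a log2 fold change of 2.75 (SE 0.31, limma adjusted p = 0.0212). Of the called targets, which passed on the unadjusted p alone, *Cxcl10*, a chemokine, had a log2 fold change of 2.70 (limma adjusted p = 0.104). It was 2.29 for *Xaf1* (adjusted p = 0.0848), a promoter of apoptosis, and 2.15 for *Ifih1* (adjusted p = 0.0509), the RNA sensor MDA5. *Jak1* and *Tyk2*, the kinases of the interferon receptor, had log2 fold changes of 0.83 (limma adjusted p = 0.273) and 1.90 (adjusted p = 0.143). The value for the transcription factor *Irf7* was -0.08 (limma adjusted p = 0.932). *Samhd1*, an enzyme that degrades dNTPs, was the only list gene with all LPS samples below, at -1.86 (adjusted p = 0.058), and was named after its values were seen. The sign of *Slfn1* is thus shared by 7 of 44 interferon genes, of which the 4 ligands could only be positive. The largest log2 fold change among the members was 1.09, in *Slfn8*. The 4 called genes were picked for a log2 fold change over 2, so that they exceed the members is no test.

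The neighbours of the cluster gave 0 calls higher and 0 lower, beside 1.69% and 1.31% of all genes. Of 56 genes of the table within 500 kb of the outermost members, 39 were tested, 20 with a positive and 19 with a negative log2 fold change. LPS samples lay above all untreated samples in 2 and below them in 5 of the 39, beside 13.1% and 9.75% of all genes. Among the 27 with a mean of at least 1 the median log2 fold change was 0.05, with 14 positive and 13 negative. They include the chemokine genes *Ccl3* (0.60, limma adjusted p = 0.518), *Ccl4* (1.88, 0.417), *Ccl5* (-0.57, 0.663) and *Ccl6* (-1.33, 0.190), and *Ap2b1*, a subunit of the clathrin adaptor (-1.19, 0.141). Along the chromosome, *Slfn5*, *Slfn9*, *Slfn8*, *Slfn10-ps* and *Slfn2* had positive values and *Slfn1*, *Slfn4* and *Slfn3*, which follow them, negative ones. Only the interval of *Slfn1* excludes 0, so this order is a description.

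**Figure D4:**
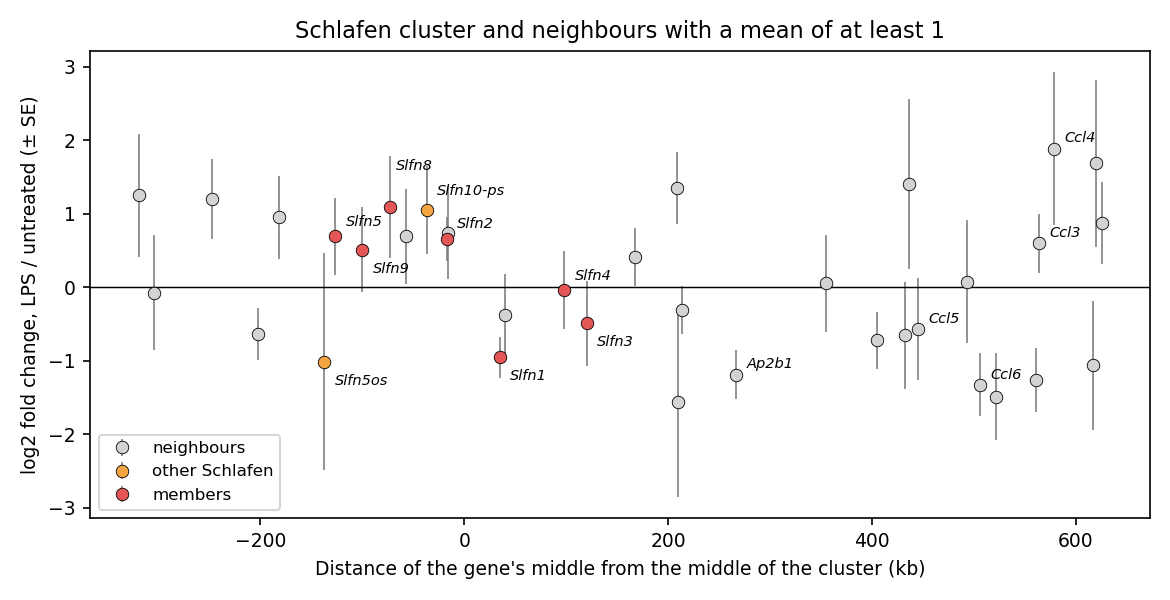
Log2 fold change (LPS / untreated) with its SE, for the Schlafen genes and the neighbours with a mean of at least 1, against distance in kb from the middle of the cluster. Neighbours on either side have values above and below 0. The limits were passed by 0 of them, beside 1.69% higher and 1.31% lower of all genes.

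The genes whose pattern was most like the mean log2 profile of the members were *Emc6* (Pearson r = 0.992 over 6 samples), *Gm2225* (0.976), *Peli1* (0.970), *Ptms* (0.967) and *Bpnt2* (0.961), the highest of 4238 genes with a mean of at least 5. *Emc6*, a subunit of the complex that inserts proteins in the endoplasmic reticulum membrane, had 4.49, 20.4 and 0.702 scaled TPM in untreated and 14.2, 7.87 and 18.4 in LPS samples. The mean profile was highest in untreated replicate 2 and lowest in untreated replicate 3, with the LPS samples in between. It averages members that lay in opposite directions, such as *Slfn1* and *Slfn2*. As the 5 genes were picked for the highest r over 6 samples, their r is raised by that choice and was not tested.

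The deleted gene *Cgas* was near 0 in every sample, at 0.203, 0.307 and 0.180 scaled TPM in untreated and 0.184, 0.0713 and 0.0286 in LPS samples. Of the scaling choices, one moved all genes together: scaling samples to the same protein-coding total moved the median log2 fold change of 4173 genes by -0.43. There *Slfn1* was at -1.45 (limma adjusted p = 0.120), *Slfn2* at 0.15 (adjusted p = 0.745) and *Slfn4* at -0.54. The *Slfn1* and *Slfn2* values kept their signs, but the groups of *Slfn2* overlapped at this scaling. The share of protein-coding genes in the summed values was 21.0% to 28.3% in untreated and 49.7% to 59.0% in LPS samples, and its part in the results was not tested.

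**Figure D5:**
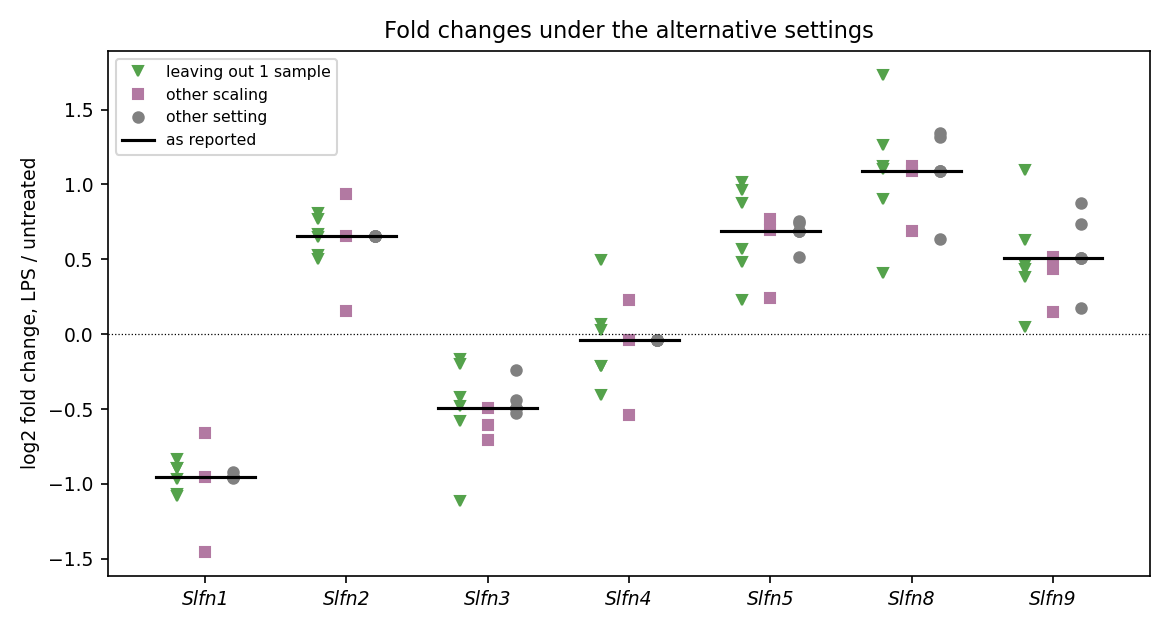
Log2 fold change (LPS / untreated) of each Schlafen member under the alternative settings, with black lines at the values as reported and one point per setting. *Slfn4* crosses 0, while *Slfn1* keeps to -1.45 to -0.66 and *Slfn2* to 0.15 to 0.94.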

How the data were processed

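Gene expression was measured by RNA sequencing (stranded libraries) in 6 samples, 3 untreated and 3 LPS. Per the labels and methods, reads were trimmed with fastp, aligned with STAR to GRCm39 (mm10 is also named), quantified with Kallisto and normalised with edgeR by the authors, and versions are not given in the sources used here. The deposited values are TPM that the authors scaled per sample, not counts. Averaging over transcripts was inferred: of 534 genes whose value times a whole number has 6 digits, that number divides the count of the gene's older GENCODE transcripts, told by their low identifier numbers, in 412 (77.2%). With no counts, no counting error or detection floor could be given.

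Groups came from the sample labels. The table has 38739 genes, of which the 15690 without a value above 0 were dropped and the other 23049 were fitted with limma 3.58.1 in R 4.3.3 (lmFit, eBayes with trend, two-sided, no covariates) on log2(value + 1), a scale that understates the change of low genes. P-values were adjusted by Benjamini-Hochberg over all genes tested. The code was tested on simulated data. Positions came from GENCODE M39, matched for 36583 genes. Coding sequences were aligned with mafft 7.526, and promoters are those of RefSeq. Protein sequences were not used here. Listed interferon genes without a row are not analysed here.

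The members and lists were chosen with earlier results of these data known. The genes named are all Schlafen genes, called interferon genes (up to 6 per direction) with *Ifnb1*, *Irf7*, *Tyk2*, *Jak1* and 1 gene that is not reported here, neighbours with a mean of at least 1, the 5 genes most alike in pattern, and *Cgas*. *Samhd1* was named after its values were seen. *Hdc* stands in the neutrophil and the mast cell list. Alternatives were pseudocounts of 0.1 and 5, a minimum mean of 1, quantile normalization, median centring, the protein-coding total, no trend, a replicate block, leaving out each sample and other limits. Sums over transcripts and over near-identical genes were added after seeing the data.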

Additional observations from a re-analysis of the deposited data

How the results depend on the processing

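Over 15 alternatives 0 of 7 Schlafen members were called at the limits, and 0 reached a limma adjusted p of 0.05 under any of them. The lowest was 0.0514 for *Slfn1*, whose log2 fold change ranged from -1.45 to -0.66. The sign held in all 15 for every member except *Slfn4*, which was 0.23 with quantile normalization and ranged from -0.41 to 0.50 when single samples were left out. *Slfn5os* ranged from -1.88 to 0.72 when single samples were left out. The interferon genes called higher, 4 as reported, were 1 with the protein-coding total, 1 at an adjusted p of 0.05, and 2 to 6 when single samples were left out, with 2 without untreated replicate 3, LPS replicate 1 or LPS replicate 3. Those called lower, 0 as reported, were 1 with the protein-coding total, 1 with a log2 limit of 1 and 0 to 1 when single samples were left out (1 without untreated replicate 3). Neighbours called higher were 0 to 1, with 1 without untreated replicate 1. The cause of these shifts was not tested. The replicate numbers were no pairs by the labels, and same-numbered samples correlated at 0.102, 0.220 and 0.0925 in their deviations from the group means, each sample correlating best with its own number. With the replicate block, 0 members were called, and the adjusted p was 0.204 for *Slfn1* and 0.218 for *Slfn2*. Depth is unknown, so low members such as *Slfn3* and *Slfn9* carry an unknown counting error.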
